A study of Mus musculus with 7 samples.

Results

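Cdx1, Cdx2, Cdx4 and Nkx1-2 were taken by name from a table of 30590 rows, and all 4 were found and tested. Bry-GFP mouse embryonic stem cells (by this name, GFP sits at Brachyury, the gene T) were followed by RNA-seq of polyadenylated RNA in 7 libraries. The day 0 group (2 libraries) is the stem cell culture itself, which was kept with LIF and serum on a layer of embryonic mouse feeder cells. The day 2 group (2 libraries) was embryoid bodies made from 75000 cells per mL in suspension for 48 h, without feeders or serum. The day 4 group (2 libraries) had a further 48 h with 3 added proteins: the BMP inhibitor Noggin (150 ng/mL), Wnt3a (25 ng/mL) and the Nodal-like ligand Activin A (9 ng/mL). The day 6 group was 1 library after another 48 h with basic FGF at 10 ng/mL. All groups stem from the same line, which the labels do not describe as a clone. The replicates are called biological, with no word on separate cultures, so p-values measure only the spread between these libraries.

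The CDX proteins are homeobox transcription factors of the posterior embryo. In textbook accounts Wnt and FGF signals in and behind the primitive streak switch Cdx genes on, and CDX proteins in turn activate Hox genes of the trunk and lengthen the body axis. Nkx1-2 (also Sax1) is an NK-class homeobox factor of the caudal lateral epiblast, where neuromesodermal progenitors, cells that can give spinal cord or paraxial mesoderm, carry both T and Sox2. The protocol gives Wnt3a and later basic FGF, and the question here is at what level the 4 genes were read in each step.

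Levels are log2 of 1 plus scaled reads, and low values lie in steps that correspond to 1, 2, 3 and more reads. The level of 3 reads ran from 1.45 to 2.30 over the libraries, and values under it are not interpreted as changes. Each library had 16611 to 18211 genes with a value over 0. A 0 can be a failed estimate here, since Gapdh, a glycolysis gene that all cells use, was listed at 6.19, 7.13, 1.85, 3.44, 3.51, 7.08 and 0, so genes at 0 are called listed at 0. Differences were tested with limma on all 7 libraries and 21813 genes, adjusted after Benjamini-Hochberg and called under 0.05, and ± values are SDs over n = 2 libraries. Day 6 has no replicate, so its comparison assumes that its library varies like the others.

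Nkx1-2 was the only one of the 4 that stood above the level of 3 reads in all 7 libraries. It was highest on days 2 and 4 and lower on days 0 and 6. Cdx1 was readable on day 0 and fell by day 2, Cdx2 stayed at a few reads throughout, and Cdx4 was at most at 2 reads in any library. Between day 2 and day 4, the step with Wnt3a, 0 of 4 passed the test, where 3.59% of all genes did, and between day 4 and day 6 it was also 0 of 4, against 4.46% of all genes (1.27% higher). By limma's unadjusted p under 0.05 it was 0 of 4 in the Wnt3a step, beside 4713 of all 21813 genes, and 2 of 4, Cdx1 and Nkx1-2, in the day 6 step, beside 5513. Successive comparisons share the libraries of the day between them. For day 4 against day 2, leaving out any single library of days 0, 2 or 4 left 0 genes called in the whole table, with 3511 to 5139 genes at an unadjusted p under 0.05.

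**Figure D1:**
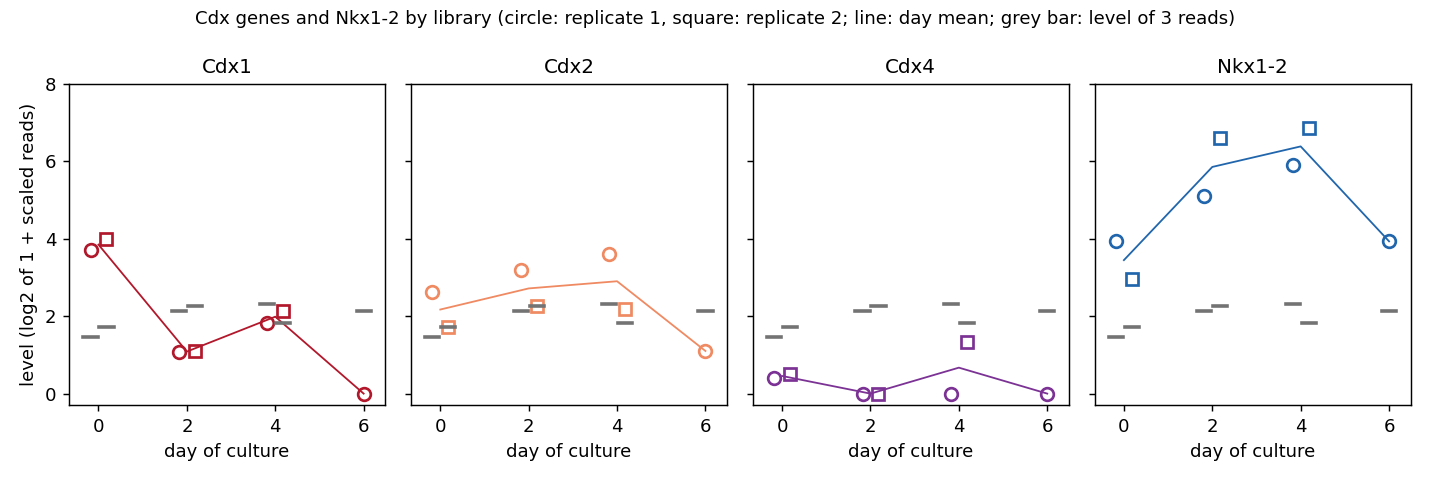
Level (log2 of 1 plus scaled reads) of Cdx1, Cdx2, Cdx4 and Nkx1-2 against day of culture, with each library as a point, the mean of each day as a line and the level of 3 reads in each library as a grey bar. Nkx1-2 lies above the bars in all 7 libraries (2.96 to 6.85), and Cdx4 lies under them in all 7.

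Nkx1-2 (chromosome 7, 132594878 to 132599637, minus strand, protein-coding, build GRCm38) was at 3.93 and 2.96 (day 0), 5.10 and 6.60 (day 2), 5.91 and 6.85 (day 4) and 3.93 (day 6). In rough reads these values were 22 and 8, then 29 and 71, then 48 and 137, and 12 on day 6. The day 2 libraries both lay above the day 0 libraries, the day 4 libraries overlapped those of day 2, and the day 6 library lay below both of day 4. The mean went from 3.45 ± 0.69 on day 0 to 5.85 ± 1.06 on day 2, a log2 change of 2.40 (SE 0.61), or 5.28-fold on this scale, which missed the threshold (limma adjusted p = 0.0522). It passed once genes with a mean under log2 of 11 were set aside (adjusted p = 0.0178) and without the day 6 library (adjusted p = 0.0309). Under the other alternatives that kept all libraries it did not pass (limma adjusted p = 0.0525 with centring on the median to 0.129 with no trend or robust moderation). The change ran from 1.65 without day 2 replicate 2 to 3.15 without day 2 replicate 1.

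From day 2 to day 4 the Nkx1-2 level moved by 0.53 (SE 0.61, limma adjusted p = 0.666), with the opposite sign (-0.22) without day 2 replicate 1. From day 4 (6.38 ± 0.66) to day 6 the log2 change was -2.45 (SE 0.75, limma adjusted p = 0.105), and it passed among genes with the mean-level minimum (adjusted p = 0.0452). Under the other alternatives that kept all libraries this change did not pass (limma adjusted p = 0.104 with centring on the median to 0.2 with no trend or robust moderation). Over the whole course Nkx1-2 changed by limma's joint F test (adjusted p = 0.0333), a test that 28.6% of all genes passed and, of the 4, Cdx1 and Nkx1-2. Leaving out any single library of days 0, 2 or 4 ended that call (adjusted p = 0.0575 to 0.339). In the order of levels, day 4 and day 2 overlap, and the day 6 value lies within the range of day 0, level with that of day 0 replicate 1 (3.93).

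The stretches before the start sites of Nkx1-2, Cdx2 and Cdx4 are shown because the first gave clear signal here and the others gave little. They come from RefSeq (GRCm38.p6), 5′ to 3′ on the strand of the gene, and end at the base before the start site. Capitals mark matches to CCAAT or GGGCGG on either strand, which are common promoter boxes. Nkx1-2 is read at chr7:132599638-132599887 on the minus strand, Cdx2 at chr5:147307271-147307499 on the minus strand and Cdx4 at chrX:103321148-103321397 on the plus strand.
Nkx1-2: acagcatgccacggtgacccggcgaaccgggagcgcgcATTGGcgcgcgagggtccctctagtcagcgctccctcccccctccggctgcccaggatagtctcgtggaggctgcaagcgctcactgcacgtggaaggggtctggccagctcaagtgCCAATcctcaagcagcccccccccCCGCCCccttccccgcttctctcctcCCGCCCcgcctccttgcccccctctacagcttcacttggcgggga
Cdx2: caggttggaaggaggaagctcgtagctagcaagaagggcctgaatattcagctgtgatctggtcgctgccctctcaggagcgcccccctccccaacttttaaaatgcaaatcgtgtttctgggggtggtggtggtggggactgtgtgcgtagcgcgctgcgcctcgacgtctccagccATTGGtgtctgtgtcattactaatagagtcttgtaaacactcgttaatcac
Cdx4: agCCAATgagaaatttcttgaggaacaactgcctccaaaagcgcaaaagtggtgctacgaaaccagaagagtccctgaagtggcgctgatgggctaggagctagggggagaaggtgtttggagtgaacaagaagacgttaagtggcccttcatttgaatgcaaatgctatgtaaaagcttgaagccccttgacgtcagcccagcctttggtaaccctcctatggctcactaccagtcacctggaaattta

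The Nkx1-2 stretch was 69.6% G or C with 19 CpG dinucleotides, that of Cdx2 53.7% with 11 and that of Cdx4 48.4% with 5. Over 32851 RefSeq stretches of 250 bases the medians were 52.4% and 6 CpG, so Nkx1-2 and Cdx2 lay above the CpG median. Of all stretches 17.9% held more CpG than that of Nkx1-2, 29.4% more than Cdx2 and 50.4% more than Cdx4. The stretch shown for Cdx2 has 229 bases, while its share was taken over 250. Nkx1-2 had 2 CCAAT matches and 2 GGGCGG matches, while Cdx2 and Cdx4 had 1 CCAAT match each. CCAAT was found in 33.8% of all stretches and GGGCGG in 32.7%. The motifs CTTTGA (core of a TCF/LEF site, in 13.8% of all stretches), TTTATNG (a CDX site, 9.81%) and TCACACC (part of a T-box site, 3.33%), each searched on both strands, had 0 matches in these 3 windows. That says only that these letters are not there.

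Cdx2, which besides its posterior role is a factor of trophectoderm and intestine, lies on chromosome 5 (147300805 to 147307270, minus strand, protein-coding). It was at 2.63 and 1.71 (day 0), 3.18 and 2.25 (day 2), 3.61 and 2.19 (day 4) and 1.10 (day 6). In rough reads that was 8 and 3, 7 and 3, 9 and 4.2, and 1. The libraries of days 0, 2 and 4 overlapped, with replicate 1 above replicate 2 on each of these days, and the day 6 library was the lowest of the 7. Changes in level were 0.55 (SE 0.70, limma adjusted p = 0.681) by day 2, 0.18 (SE 0.70, adjusted p = 0.970) by day 4 and -1.80 (SE 0.86, adjusted p = 0.251) by day 6. The day 4 change turned to -0.28 without day 2 replicate 2 and -0.52 without day 4 replicate 1. Without 1 library in turn the day 2 change ran from 0.08 to 1.01 and the day 6 change from -2.51 to -1.10. Cdx2 passed in no comparison, and 3 of its 7 libraries were at or under 3 reads.

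Cdx4, a gene of the posterior streak that is known to activate Hox genes in blood progenitors, lies on the X chromosome (103321398 to 103330592, plus strand, protein-coding). It was at 0.40 and 0.51 on day 0, listed at 0 in both day 2 libraries, listed at 0 and at 1.34 on day 4 and listed at 0 on day 6. Those values stand for 1, 1 and 2 reads, or 4 reads over 7 libraries, all under the level of 3 reads. No change can be read from them, and limma called none (adjusted p = 0.616, 0.496 and 0.555 in the 3 comparisons).

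Cdx1, a direct Wnt and retinoic acid target in the embryo by textbook knowledge, was highest on day 0. It was at 3.71 and 3.98 (day 0), 1.08 and 1.09 (day 2), 1.83 and 2.14 (day 4) and listed at 0 on day 6. In rough reads that was 19 and 18, then 1 and 1, then 2 and 4. The day 0 libraries lay above all others, and 4 of 7 libraries were at or under 3 reads. Cdx1 fell from 3.84 ± 0.19 to 1.09 ± 0.01 by day 2 (log2 -2.75, SE 0.49, limma adjusted p = 0.0167), the only one of the 4 that passed in that comparison, where 12.0% of all genes passed, 5.76% higher and 6.20% lower. Since the day 2 level is that of 1 read, the size of the fall is uncertain.

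The Cdx1 change by day 2 ran from -2.89 to -2.62 without 1 library in turn and was -1.23 with 8 in place of 1 added before the log, where it still passed (limma adjusted p = 0.00936). Leaving out any single library of days 0, 2 or 4 ended the call (limma adjusted p = 0.0509 to 0.0752). From day 2 to day 4, with Wnt3a, the level moved by 0.90 (SE 0.49, limma adjusted p = 0.371), which is 2 and 4 reads against 1 and 1. The day 4 libraries lay above those of day 2 and at or near the level of 3 reads. On day 6 the gene was listed at 0, and the difference from day 4 did not pass (log2 -1.98, limma adjusted p = 0.102, and -0.46 with 8 added). Over all days the joint F test called it (adjusted p = 0.0128), and did not without either day 0 or either day 4 library (0.0502 to 0.058).

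Feeder fibroblast genes fell with Cdx1 in the first step. Of 12 such genes, 11 fell between day 0 and day 2, beside 6.20% of all genes. The median log2 change of the 12 was -4.22 beside 0.05 over all genes tested, and their summed level went from 14.16 and 14.34 to 10.34 and 9.78. Dcn, the exception, changed by -0.29 and did not pass (limma adjusted p = 0.701). None of the 12 was listed at 0 on day 0. The feeder genes were at 8.47 and 8.37 (day 4) and 8.73 (day 6). Their median change was -1.06 by day 4, with 5 called lower beside 2.13% of all genes, and 0.36 by day 6. Cdx1 moved by 0.90 and -1.98 in these steps without passing. The part of the feeder genes in the fall of Cdx1 was not tested. No source used here says whether the feeders had been removed when day 0 RNA was taken. In bulk libraries fewer cells of a type and less RNA per cell cannot be told apart.

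**Figure D2:**
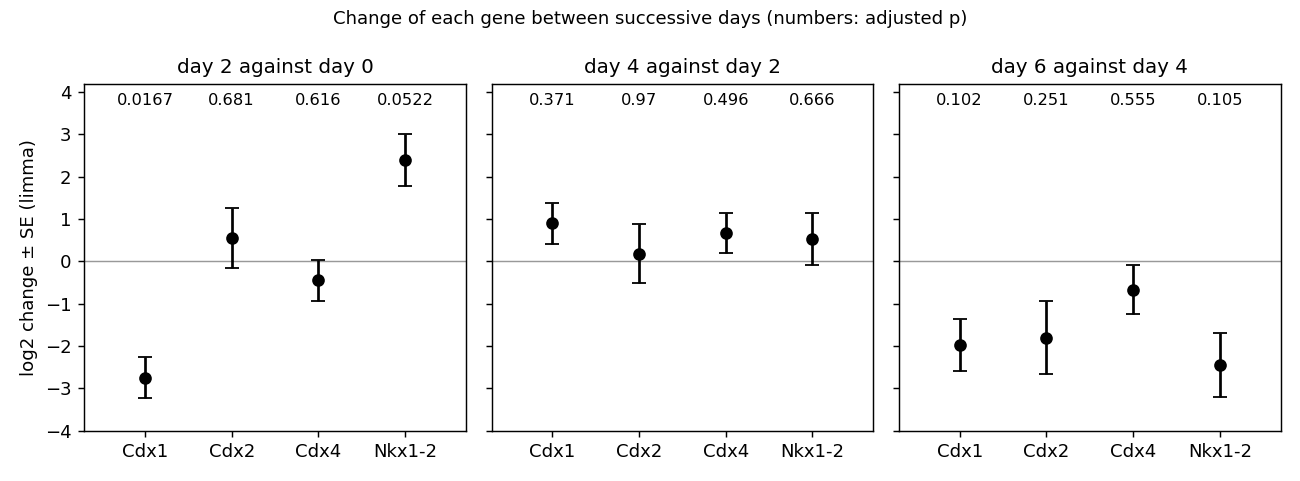
Log2 change with its SE (limma) of Cdx1, Cdx2, Cdx4 and Nkx1-2 in the 3 comparisons of successive days, with the adjusted p along the top. Only Cdx1 on day 2 passed the threshold of 0.05 (adjusted p = 0.0167). All 4 points of day 6 against day 4 lie below 0 without passing, and day 6 is 1 library. The point of Cdx4 there rests on 2 reads in day 4 replicate 2, so no change is read from it.

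Compared per length of exon, which allows genes to be set side by side, the scaled reads per kb ran from 2.08 to 35.04 for Nkx1-2, from 0 to 8.44 for Cdx1, from 0.50 to 4.96 for Cdx2 and from 0 to 0.78 for Cdx4 over the 7 libraries. On day 4 the values of T, the Brachyury gene, were 224 and 175 per kb and those of Sox2 325 and 338. The Cdx genes were thus at a small part of the level of both marks of neuromesodermal progenitors in the same libraries, Cdx1 at 1.46 and 1.94, Cdx2 at 4.96 and 1.58 and Cdx4 at 0 and 0.78 per kb. Nkx1-2 stood between, at 18.15 and 35.04 per kb. In the day 4 libraries 26.5% and 20.0% of genes had a higher level than Nkx1-2.

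The neighbours of each gene were read to see what surrounds the loci. On chromosome 18, Cdx1 (61018862 to 61036199, minus strand, protein-coding) lies 9.0 kb from Pdgfrb, a growth factor receptor of fibroblasts on the plus strand, and 4.6 kb from Slc6a7, a proline transporter gene. Pdgfrb is also one of the feeder genes above and was at 7.68 and 8.36 (day 0), 5.26 and 4.84 (day 2), 5.12 and 4.62 (day 4) and 5.77 (day 6). It fell between day 0 and day 2 by 2.97 (SE 0.33, limma adjusted p = 0.00385) and so moved the same way as Cdx1. Slc6a7, nearer to Cdx1, was at 2.46 and 2.29, 2.12 and 1.09, listed at 0 and 1.34, and listed at 0, and did not pass in any comparison (lowest adjusted p = 0.499).

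Nkx1-2 lies 11 kb from Lhpp, a phosphatase gene on the plus strand, and 18.5 kb from Oat, an amino acid enzyme gene. Lhpp was at 5.98 and 5.79 (day 0), 6.93 and 7.14 (day 2), 7.33 and 7.36 (day 4) and 5.78 (day 6), so it too was high on days 2 and 4. It rose by 1.15 by day 2 (SE 0.19, limma adjusted p = 0.0137) and fell by 1.56 from day 4 to day 6 (SE 0.24, adjusted p = 0.0268). Oat, between 8.45 and 9.45 in all libraries, did not pass in any comparison (lowest limma adjusted p = 0.0632). The annotated antisense gene Gm16764 lies wholly within Nkx1-2 and is not analysed here. The GENCODE span of Fgfr2, on the same strand as Nkx1-2, covers it as well (Fgfr2 levels 6.15 to 8.25). The library kit marks strand, but no source used here says whether counting used it, so reads of Nkx1-2 and its antisense partner cannot be told apart.

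Pdx1 and Urad, the genes 25.0 and 7.7 kb from Cdx2, were at most at 1.84 and 1.09, a few reads at most. Cdx4 lies 25.9 kb from Chic1, which was at 6.23 to 7.50 in all libraries and did not pass in any comparison (lowest limma adjusted p = 0.234). On its other side, 134.8 kb away, Nap1l2 rose by 2.10 by day 2 (limma adjusted p = 0.0374). Chic1 was thus well above the level of 3 reads in all 7 libraries in which Cdx4 was under it.

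**Figure D3:**
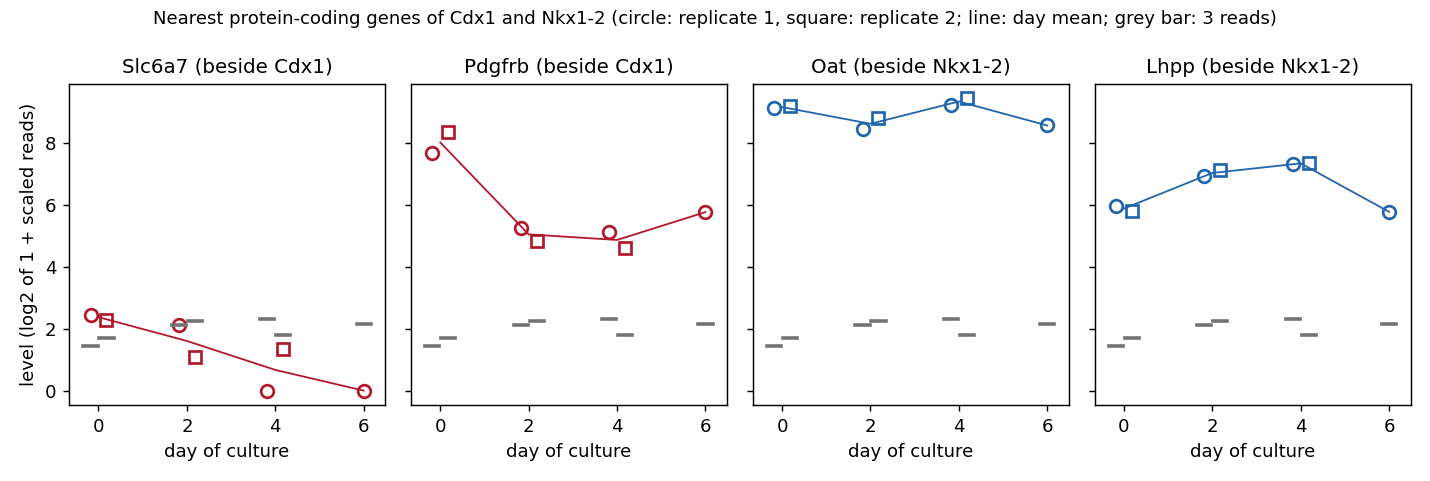
Levels (log2 of 1 plus scaled reads) of the nearest protein-coding genes of Cdx1 (Slc6a7 and Pdgfrb) and of Nkx1-2 (Oat and Lhpp) against day of culture, each point a library, lines the day means and grey bars the level of 3 reads. Pdgfrb drops from 7.68 and 8.36 on day 0 to 5.26 and 4.84 on day 2, and Lhpp is highest on day 4 at 7.33 and 7.36.

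Of 20 partner genes of neuromesodermal progenitors and the caudal stem zone, 4 rose and 1 fell by day 2. By day 4, 1 rose and 1 fell, and by day 6, 3 fell. Of all genes tested, 5.76% rose and 6.20% fell by day 2, 1.45% and 2.13% by day 4, and 1.27% and 3.18% by day 6. The medians of the list were 0.28, 0.40 and -0.69 beside 0.05, 0 and 0 over all genes. T was at 6.23 and 4.05 (day 0), 3.18 and 5.80 (day 2), 9.02 and 8.67 (day 4) and 7.95 (day 6). The day 4 libraries of T lay above all others, yet its change from day 2 did not pass (log2 4.35, SE 0.96, limma adjusted p = 0.0638). Sox2 was between 9.21 and 9.68 up to day 4 and at 10.32 on day 6 (log2 0.90, SE 0.20, limma adjusted p = 0.0549). T and Sox2 RNA were thus both high on days 4 and 6, while Cdx1, Cdx2 and Cdx4 were at or below 1.10 on day 6. In bulk RNA, cells with both and a mixture of cells with each cannot be told apart.

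Wnt8a, a Wnt ligand of the posterior epiblast, had a course like that of Nkx1-2, at 5.90 and 5.15 (day 0), 7.10 and 7.22 (day 2), 7.38 and 7.12 (day 4) and 3.98 (day 6). It rose by 1.64 by day 2 (SE 0.29, limma adjusted p = 0.0174) and fell by 3.27 from day 4 to day 6 (SE 0.36, adjusted p = 0.0169). Hes3, a repressor of neural progenitors, was listed at 0 and at 0.51 on day 0, was at 5.63 and 4.85 (day 2) and 3.75 and 3.99 (day 4), and stood at 1.72 on day 6 (day 2 against day 0, limma adjusted p = 0.00265). Hoxb1, the first Hox gene of the posterior streak, rose by 4.52 by day 2 to 6.21 and 6.41 (SE 0.42, limma adjusted p = 0.0021) and stayed at 5.85 to 6.03 afterwards. Greb1 rose by 3.61 (limma adjusted p = 0.000513), and Fgf17, an FGF ligand, fell by 2.13 (adjusted p = 0.0197).

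By day 4 Rspo3, which boosts Wnt signalling, rose by 2.12 (limma adjusted p = 0.0369) and Fgf4 fell by 2.16 (adjusted p = 0.0194). By day 6 Wnt8a, Sall4 (-1.10, limma adjusted p = 0.0460) and Evx1, a posterior homeobox gene at 2.94 in both day 4 libraries and listed at 0 on day 6 (adjusted p = 0.0483), fell. Fgf8, the ligand of the caudal stem zone, was at 5.52 and 4.99 (day 4) and 1.82 (day 6) and missed the threshold (log2 -3.43, SE 0.74, limma adjusted p = 0.0536). It passed among genes with the mean-level minimum (adjusted p = 0.0174), but its libraries of days 0 and 6 lie under that minimum, so it was met through days 2 and 4. Fgf8 also passed with 8 in place of 1 added before the log (limma adjusted p = 0.0463). It did not with centring (limma adjusted p = 0.0533), with a replicate block (0.0673) or with no trend or robust moderation (0.103). Cyp26a1, which clears retinoic acid from the tail bud, was at 4.72 and 3.74, 5.56 and 5.04, 5.48 and 6.09, and 6.48, with no call between successive days (lowest adjusted p = 0.166). Wnt3a and Tbx6, the latter a switch to paraxial mesoderm, were at most at 3.18 and 3.29 and passed in no comparison (lowest adjusted p = 0.163).

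**Figure D4:**
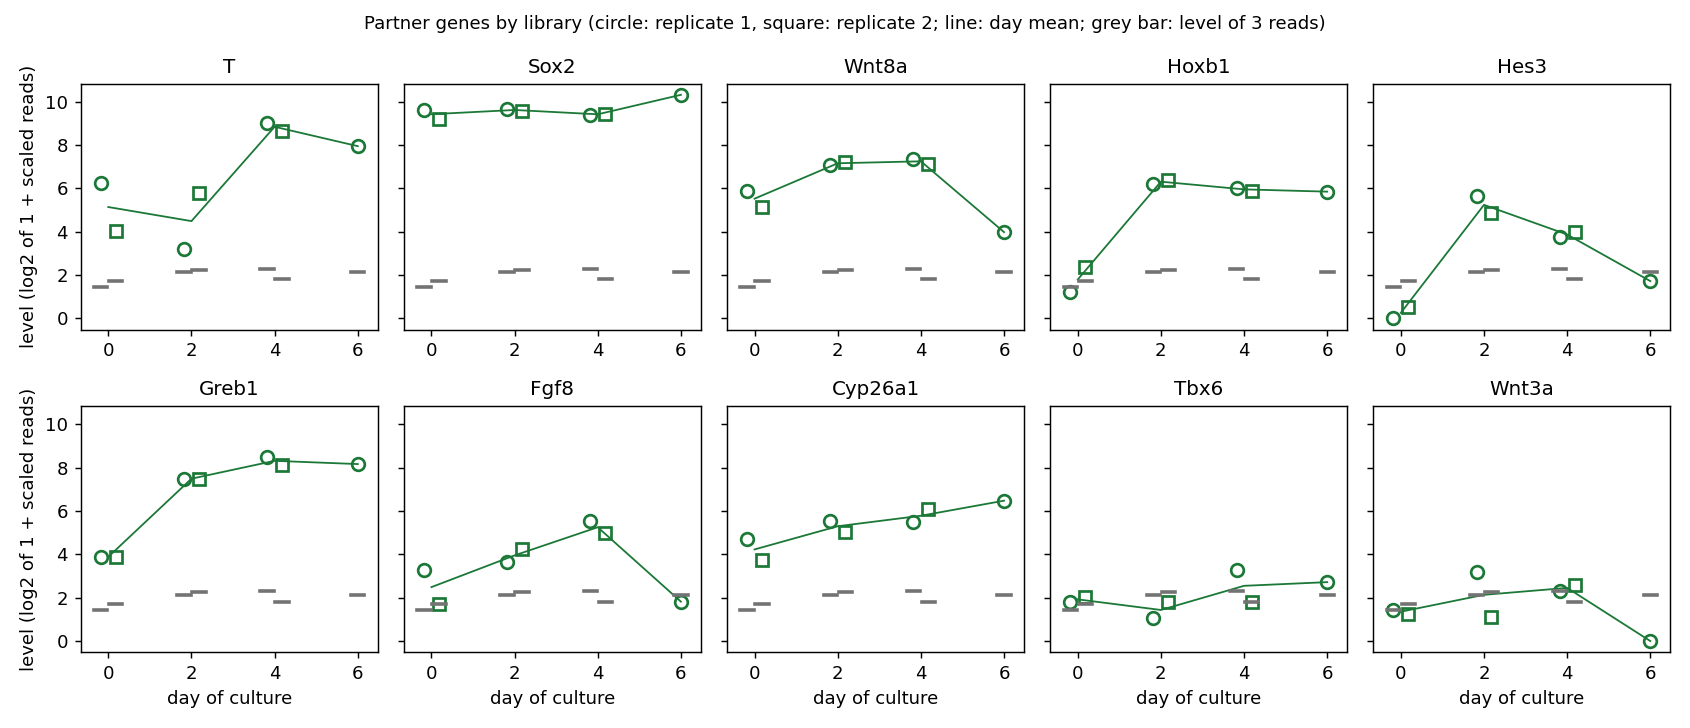
Levels (log2 of 1 plus scaled reads) of 10 partner genes against day of culture, each point a library, lines the day means and grey bars the level of 3 reads. T is at 9.02 and 8.67 on day 4, Sox2 is above 9 in all libraries, Wnt8a drops to 3.98 on day 6, and Tbx6 and Wnt3a stay near the bars.

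The signals that act on Cdx genes were read from 3 further lists. Of 12 Wnt feedback genes and targets, 4 rose by day 2 (Sp8 by 2.80, Nkd1 by 2.29, Lef1 by 1.60 and Tcf7 by 1.01) and Ccnd1, a cyclin, fell by 1.28. In that step 5.76% of all genes rose and 6.20% fell. Between day 2 and day 4, when Wnt3a was present, 0 rose, where 1.45% of all genes did, so this count is near the background. Lef1, a partner of beta-catenin, fell by 0.87 (limma adjusted p = 0.0494), although the list median was 0.59 beside 0 over all genes. The call of Lef1 was lost with 8 added before the log, with no trend or robust moderation, with a replicate block and without any single library of days 0, 2 or 4 (limma adjusted p = 0.0502 to 0.197). Axin2, a feedback inhibitor widely used as a Wnt readout, was at 6.90 and 6.42 (day 2) and 6.83 and 7.13 (day 4), which overlap. Other genes of the list, chosen after their values were seen, had higher means on day 4 without passing. Dkk1, a secreted Wnt inhibitor, was at 3.43 and 4.02 (day 2) and 6.52 and 6.50 (day 4; log2 2.78, limma adjusted p = 0.0574). Lgr5, a receptor of R-spondins, was at 2.31 and 3.65 (day 2) and 5.59 and 5.38 (day 4; log2 2.51, adjusted p = 0.0733). Rnf43 and Nkd1 differed the same way, by 1.55 and 1.48 (adjusted p = 0.139 and 0.112). Znrf3, besides Lef1, went the other way (-0.42, limma adjusted p = 0.321), and Notum moved by 0.31 with overlapping libraries. By day 6 Lef1 fell again, by 1.81 (limma adjusted p = 0.0188), and the list median was -0.76.

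Of 10 FGF and ERK feedback genes, 0 rose on day 6 in basic FGF and 3 fell, Etv5 by 2.70 (limma adjusted p = 0.00367), Etv4 by 2.03 and Il17rd by 1.92. Of all genes 1.27% rose and 3.18% fell there, so the count of 0 higher is near the background. Etv5, a factor that FGF signals switch on, had been at 10.37 and 10.25 on day 4 and was at 7.62. In the first step 3 of the 10 rose and 2 fell, where 5.76% of all genes rose and 6.20% fell. By day 4 only Etv5 fell (0.65, limma adjusted p = 0.0427), beside 2.13% of all genes. Of 9 genes of retinoic acid handling and response, 6 rose by day 2, beside 5.76% of all genes. They were led by Crabp1, a retinoic acid binding protein (log2 3.61, limma adjusted p = 0.00155). Cyp26b1, an enzyme that degrades retinoic acid, rose again by day 4 by 3.86 to 10.34 and 9.35 (limma adjusted p = 0.0133). Dhrs3, an enzyme that limits retinoic acid synthesis, was listed at 0 on day 6 after 3.53 and 3.60 (limma adjusted p = 0.0229).

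Hox genes, which CDX proteins are known to activate in the trunk, were counted by paralog group. Of 12 genes of paralog groups 1 to 4, 3 rose by day 2 (Hoxb1, Hoxa2 by 3.50 and Hoxb3 by 1.22), and none passed later. By day 2, 5.76% of all genes rose and 6.20% fell. Hoxd4, Hoxc4 and Hoxb4 of these groups had log2 changes of -2.36, -1.38 and -0.86 by day 2 and did not pass. Of 15 genes of groups 5 to 9, 6 fell by day 2, among them Hoxc6 by 3.81, Hoxc8 by 3.24 and Hoxb9 by 3.16, at a list median of -2.31, while Hoxb8 was at -0.09. A difference between the groups of Hox genes was not tested. Of 10 tested genes of groups 10 to 13, 3 fell (Hoxa11, Hoxd10 and Hoxd13). The feeder genes fell in the same libraries, and their part in these falls was not tested. Between days 2 and 4 and between days 4 and 6, 0 of the 37 tested Hox genes passed, where 3.59% and 4.46% of all genes did, so these counts are near the background. The summed level of groups 5 to 9 was 8.30 and 8.81 on day 0 and between 5.38 and 6.12 afterwards.

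**Figure D5:**
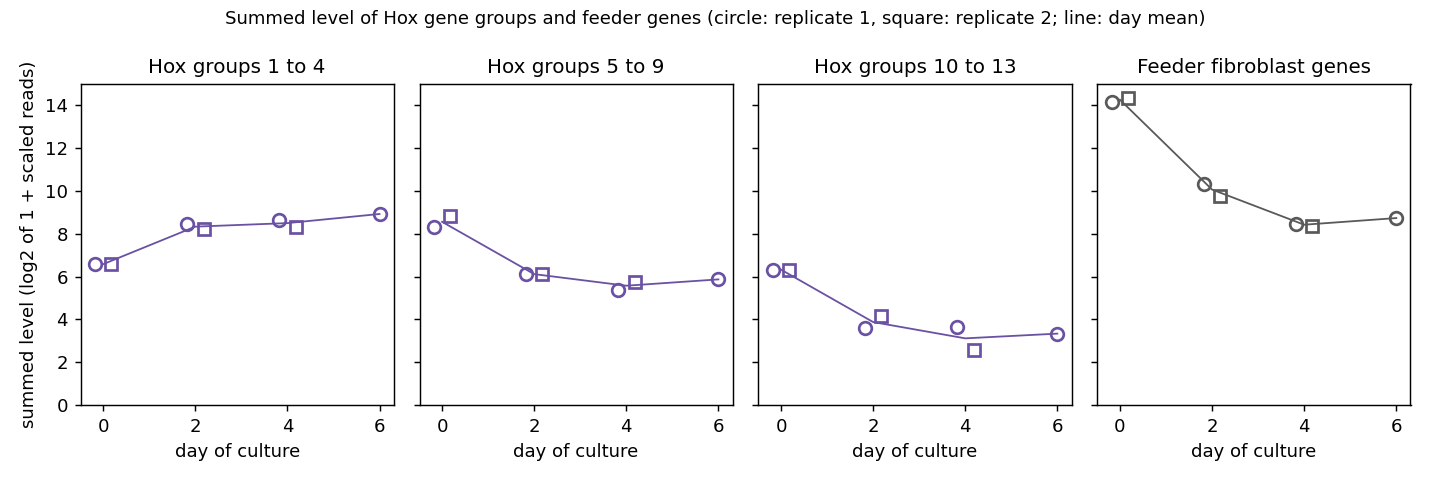
Summed level (log2 of 1 plus the summed scaled reads) of Hox genes of paralog groups 1 to 4, 5 to 9 and 10 to 13 and of 12 feeder fibroblast genes against day of culture, each point a library and lines the day means. Groups 5 to 9 go from 8.30 and 8.81 on day 0 to 5.87 on day 6, while groups 1 to 4 go from 6.57 and 6.59 to 8.92.

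The fates open to neuromesodermal progenitors were read from lists of both. Of 12 preneural and neural genes, 8 rose by day 2 and 4 by day 4, and Zic2 fell by day 6. The shares of all genes were 5.76% higher by day 2, 1.45% higher by day 4 and 3.18% lower by day 6. Sox1 rose by 4.67 and Sox3 by 3.62 in the first step, and in the second step Dbx1, of the neural tube, rose by 5.13 and the Notch target Hes5 went from 1.70 and a listed 0 to 6.36 and 5.90 (limma adjusted p = 0.0147). Of 10 tested presomitic mesoderm genes Foxc2 fell by day 2, beside 6.20% of all genes. By day 4, 2 rose, the Notch genes Dll3 (2.36, limma adjusted p = 0.0252) and Lfng (1.95, adjusted p = 0.0308), which neural cells also use. The summed level of the 12 listed genes was 7.04 and 6.73 (day 2), 8.46 and 8.01 (day 4) and 8.57 (day 6). Dll1, a Notch ligand, was at 6.23 and 5.79, then 7.73 and 7.09, then 7.69, and Meox1, a somite factor, at 2.73 and 1.09, then 3.75 and 3.45, then 4.88, with no call for either. Msgn1 and Ripply2 were listed at 0 in all 7 libraries. Of 10 anterior neural genes Otx2 (2.28) and Pax2 rose by day 2 and none passed later.

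Nkx1-1, the nearest relative of Nkx1-2, was listed at 0 in all 7 libraries. Among 7 tested genes of 9 other NK homeobox genes, Nkx6-1, a factor of the ventral neural tube, rose by 2.35 by day 2 and by 3.15 by day 4, to 6.13 and 6.09, and was at 8.44 on day 6. Nkx2-1, of ventral forebrain and lung, was listed at 0 on days 2 and 4 and at 3.67 on day 6 (limma adjusted p = 0.0219). Both stood highest on day 6, where Nkx1-2 was at 3.93.

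Cdx2 is also read in trophectoderm and gut, so their markers are given beside it. The summed level of 10 trophectoderm genes was between 6.71 and 7.72 in all libraries. Of these genes only Tfap2c was called, lower by day 4 (beside 2.13% of all genes) and higher by day 6 (beside 1.27%). Elf5, a defining factor of that layer, was listed at 0 in 4 of the 7 and at most at 1.46. Others of the list were well above the level of 3 reads, among them Tead4 (4.23 to 5.05 in all libraries), Eomes, which the primitive streak also uses (5.06 to 6.90 up to day 4 and 3.06 on day 6), and Krt7 (4.56 and 4.72 on day 4). The summed level of 10 hindgut and intestinal genes was between 4.41 and 5.79 on days 0 and 2, 6.93 and 6.82 (day 4) and 7.86 (day 6). Lgals4 was called lower by day 2, beside 6.20% of all genes, with no other call in this list. Foxa1, an endoderm factor also used elsewhere, was at 2.73 and a listed 0 (day 2), 5.82 and 5.18 (day 4) and 7.63 (day 6), and Sox17, of early endoderm, at 3.16 and 3.18, then 5.69 and 5.74, then 4.33. Neither passed between day 2 and day 4 (limma adjusted p = 0.0578 and 0.0768). Guca2b was listed at 0 throughout, and Vil1 and Cdh17, of the gut lining, were at most at 2.45 and 3.19. The 10 stem cell genes were above 0 in every library, with a summed level of 13.18 and 13.07 (day 0) and 10.80 (day 6). In the 3 steps 5, 6 and 5 of them fell, beside 6.20%, 2.13% and 3.18% of all genes. The part of these cells in the reads of Cdx2 was not tested.

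By Pearson correlation over the 7 libraries among 10994 genes, which is a description with no test, the genes most like Nkx1-2 were Rapgef5 (0.979), Myb (0.972), Rassf6 (0.971), Matn3 (0.968) and Fh1 (0.964). Myb, a transcription factor, was at 4.80 and 4.06, 6.55 and 7.37, 6.48 and 7.27, and 5.28. Like Nkx1-2 it was higher in replicate 1 on day 0 and higher in replicate 2 on days 2 and 4. Among those most like Cdx1 were Fam129b (0.994), Tes (0.991), Arhgap23 (0.990) and Myl6 (0.990). Tes is a focal adhesion protein and Myl6 a myosin light chain. Fam129b was at 9.07 and 9.47 (day 0), 7.07 and 6.93 (day 2), 7.50 and 7.75 (day 4) and 5.64 (day 6). For Cdx2 the same rule gave Dgcr14, Kmt2d, Fsd1, Lmbr1l and Cog7, and for Cdx4 Eef1g, Susd1, Pcnp, Pecr and Xxylt1, and these rest on a few reads.

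The calls of single genes given here were made with 3 residual degrees of freedom. Of the list genes and neighbours, 62 were called between days 0 and 2, 22 between days 2 and 4 and 17 between days 4 and 6, and each of them lost its call without at least 1 library. Without day 4 replicate 1 none was called in any of the comparisons. None changed sign under any alternative.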

How the data were processed

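RNA of 7 libraries was sequenced after a TruSeq stranded preparation, per the labels' protocols. The deposited table holds values on a natural log scale, ln(1 + scaled reads), as inferred from the spacing of low values. The sorted columns agree in their upper range, from which quantile normalization before deposit is inferred, though no source used here states it. The submitters' processing notes name GRCm38. For the aligner, the counter, its annotation and its strand setting: not given in the sources used here. Day 0 replicate 2 has a column name with the letter O in place of a zero.

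Values were divided by the natural log of 2. Of 30590 rows, 103 of foreign sequence and 8674 genes at 0 throughout were left out, and 21813 were tested with limma-trend, robust (limma 3.58.1, R 4.3.3), with 1 mean per day and Benjamini-Hochberg adjustment over all genes. The fit was tested on simulated data with the same spread for every gene and changes only in genes that reached the mean-level minimum. That simulation therefore does not cover genes at a few reads. Reads are rough, from the steps of the low values (the lowest frequent value is taken as 1 read, and the step of 8 reads scales higher values). Positions and exon lengths are from GENCODE M21 (GRCm38), promoter stretches from RefSeq. For the 4 genes, stretches on chromosome 18, where Cdx1 lies, were left out, so 3 of the 4 are covered. The background medians and shares were taken over all 32851 stretches.

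Named were the 4 genes, T, Sox2, Tbx6, Wnt3a, Fgf8 and Cyp26a1, up to 4 called members per list by size of change, neighbours, and the 5 genes best correlated with each of the 4, among genes whose mean reached log2 of 11 and that were above 0 in 4 or more libraries, without predicted, ribosomal and histone genes. For Cdx1, 1 of these 5 is not reported here. Axin2, Dkk1, Lgr5, Rnf43, Nkd1 (day 4), Znrf3, Notum, Dcn, Dll1, Meox1, Msgn1, Ripply2, Hoxd4, Hoxc4, Hoxb4, Hoxb8, Nkx1-1, Elf5, Tead4, Eomes, Krt7, Foxa1, Sox17, Guca2b, Vil1 and Cdh17 were chosen after their values were seen. The members and lists were chosen with earlier results of these data known. Alternatives were a mean-level minimum, 8 in place of 1 added before the log, centring on the median, no trend or robust moderation, a replicate block and leaving out each library.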

Additional observations from a re-analysis of the deposited data

How the results depend on the processing

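Without 1 library in turn the number of genes called ran from 0 to 2871 (day 2 against day 0), 0 to 1092 (day 4 against day 2) and 0 to 295 (day 6 against day 4), where all libraries gave 2609, 782 and 972. The number of the 4 genes called ran from 0 to 2 (day 2 against day 0) and 0 to 2 (joint test). Over the same fits the log2 change of Cdx1 by day 2 was -2.89 to -2.62 and that of Nkx1-2 1.65 to 3.15. By day 4 that of Cdx2 was -0.52 to 0.89 and that of Nkx1-2 -0.22 to 1.28. The joint adjusted p was 0.0177 to 0.058 for Cdx1 and 0.0165 to 0.339 for Nkx1-2 (limma). By day 2, changes of T were -1.96 to 0.66, of Sox2 -0.02 to 0.41 and of Wnt3a -0.26 to 1.83. By day 4 Wnt3a was at -0.73 to 1.36 and by day 6 Tbx6 at -0.57 to 0.91. The cause was not tested, beyond the fewer samples.

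With the mean-level minimum, which Nkx1-2 alone of the 4 met, 1422 (day 4) and 2200 (day 6) genes were called, and Nkx1-2 passed by day 2 (2.40) and day 6 (-2.45), so 1 of the 4 was called by day 6 and 1 by the joint test. With no trend and no robust moderation 1609, 335 and 609 genes were called in the 3 comparisons, Cdx1 passed by day 6 (-1.98), which makes 1 of the 4, and Nkx1-2 lost the joint call (adjusted p = 0.105), which leaves 1. The cause was not tested. A pseudocount of 8 and centring changed no call of the 4, but with the former the Cdx1 changes by day 2 and day 6 shrank to -1.23 and -0.46. Centring had little to move between days, since the libraries' median levels, averaged within each day, differed by at most 0.007 between successive days.

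The labels give replicate numbers, and same-numbered libraries also share a tag in their column names. They did not deviate together throughout, across 11800 genes. The r was -0.058 between days 0 and 2, -0.066 between days 0 and 4 and 0.222 between days 2 and 4. What same-numbered libraries have in common beyond this was not tested. With a replicate block 2243, 568 and 606 genes were called, and no call of the 4 changed.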
